A study of Arabidopsis thaliana with 9 samples.

Results

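The genes described here are the nuclear genes of Arabidopsis thaliana that encode the light-harvesting antenna and the photosystems, taken as a fixed list of 45 loci: 6 LHCA genes of the photosystem I antenna, 14 LHCB genes of the photosystem II antenna, 12 PSA genes of the photosystem I core, 10 PSB genes of photosystem II, and PETC, PETE1 and PETE2, which link the photosystems. The deposited table of 21176 genes held 44 of them, and LHCB1.5 (AT2G34420) was not analysed here. All 44 passed the filter on low values in every group, the lowest value of any of them in any library being 3475, and were tested among 18650 genes. Messenger RNA came from rosette leaves of 5-week-old Col-0 plants in hydroponic culture, under 13 h of light and 11 h of dark. No mutation or transgene is named for any group. The 3 groups hold 3 libraries each: Control without added salt, Phase 0 harvested 1 h after a shock with 105 mM NaCl, and Phase 1 harvested 2 days after NaCl, added in daily steps of 15 mM, had reached 90 mM. The phases differ in dose, in how salt was added and in time, so they are not points of a single time course. The labels do not say whether replicates are separate plants, so the p-values measure only the spread between these libraries. They also give no time of day of harvest.

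Photosystem II splits water and passes electrons through the cytochrome b6f complex and plastocyanin to photosystem I, which reduces ferredoxin. Antenna proteins of the LHC family bind chlorophyll around both photosystems and feed them excitation energy. In leaves these genes are among the most strongly transcribed in the nucleus, they respond to light and to the daily clock, and the proteins are imported into the chloroplast, where they join subunits that the plastid genome encodes.

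Values are normalised counts, given in the order of replicates 1, 2 and 3, or as mean ± SD with n = 3. Differences are on the scale log2(normalised count + 1) with their standard error (SE). "Passed" means an adjusted p under 0.05 from limma with Benjamini-Hochberg adjustment over all genes tested. Library totals ran from 22786946 to 27820610. The 44 genes made up 17.5% to 18.5% of the library total in Control, 14.2% to 15.5% in Phase 0 and 11.7% to 14.1% in Phase 1. By mean Control value they were 19 of the 25 highest genes of the table and 37 of the 100 highest. Leaf mesophyll markers (4 RBCS genes, RCA and CA1) lay between 28859 and 615259. Root markers were at 0 to 9, with 3 of 5 in the table, the flower marker AG was at 16 to 37, and 0 of 3 seed markers were in the table. Organelle-encoded transcripts made up 0.605% of Phase 0 replicate 2 and at most 0.0575% of the other libraries.

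Summed by class, all classes were lower than Control 1 h after the shock. The antenna and photosystem I sums were lower in Phase 1 than in Phase 0. The LHCB sum was 1875798 to 2209320 in Control, 1353472 to 1524112 in Phase 0 and 1050935 to 1333464 in Phase 1, so that the 3 groups did not overlap. Its means were 71.9% and 59.9% of the Control mean. LHCA sums gave 82.1% and 65.4% of Control, and photosystem I sums 77.4% and 65.4%, again with no overlap between any of the groups. The photosystem II sum lay between 808466 and 821024 in Phase 0 and between 643691 and 825298 in Phase 1, with means at 80.9% and 75.1% of Control. Both phases lay below every Control library, at 959812 or more, and overlapped each other. For PETC and the PETE genes the means were 81.9% and 85.7%. Their Phase 0 sums, 153533 to 170137, lay below every Control library, at 173297 or more. In Phase 1 the sums, 155522 to 179219, overlapped those of Control and of Phase 0. Phase 1 replicate 2 was the lowest library of its group in each of these classes, and without it the Phase 1 means were 71.9% for LHCA, 63.8% for LHCB, 71.1% for photosystem I and 80.6% for photosystem II. Control replicate 1 was the highest library of its group in each class. Without it the means in Phase 0 and Phase 1 were 83.8% and 66.8% for LHCA and 75.4% and 62.8% for LHCB. They were 79.9% and 67.5% for photosystem I, 84.5% and 78.4% for photosystem II and 87.3% and 91.3% for PETC and PETE. The mesophyll markers stood at 86.1% and 84.8% of Control, and their ranges overlapped those of Control in both phases. In whole leaves fewer mesophyll cells and less of these transcripts per cell cannot be told apart.

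**Figure D1:**
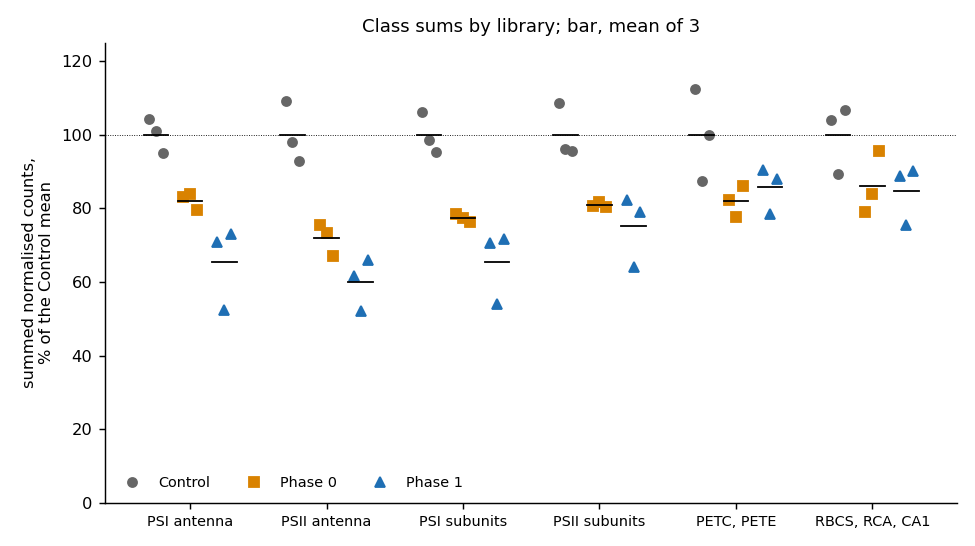
Summed normalised counts per class as a percent of the Control mean (y axis, starting at 0), for the 5 classes and the mesophyll markers (x axis), with a point per library and a bar at the mean of 3. The LHCB means are 71.9% in Phase 0 and 59.9% in Phase 1, and the lowest Phase 1 point in each of the 5 classes is replicate 2.

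The classes did not keep their proportions. The ratio of summed antenna to summed photosystem II counts was 2.71 to 2.85 in Control, 2.42 to 2.66 in Phase 0 and 2.16 to 2.38 in Phase 1. These ranges did not overlap. Photosystem I relative to photosystem II followed the same order, from 0.770 to 0.808 in Control through 0.745 to 0.767 in Phase 0 to 0.664 to 0.712 in Phase 1. The antenna relative to photosystem I changed less, with 3.45 to 3.58 in Control, 3.24 to 3.48 in Phase 0 and 3.20 to 3.39 in Phase 1. The LHCA sum relative to photosystem I was 0.945 to 0.986 in Control, 1.00 to 1.04 in Phase 0, above every Control library, and 0.933 to 0.983 in Phase 1. Since the ratios sum genes chosen with earlier results known, no p is given for them. They lean on the most abundant genes: with the LHCB1 and LHCB2 families left out, the Phase 1 shift in antenna to photosystem II was −0.20 in place of −0.292 on the log2 scale, and with geometric means it was −0.125. Between the phases that shift was −0.175, and −0.0162 with geometric means. For antenna to photosystem I the same changes turned the Phase 1 shift from −0.0876 to 0.0044 and 0.064.

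In Phase 0 against Control, which asks what 1 h of salt shock did, the genes were low together while only PETE1 passed the test. Of the 44, 43 had a negative log2 difference, with a median of −0.35 where all genes tested had 0.010, and a range of −0.86 to 0.23. The Phase 0 libraries were all below the Control libraries for 37 of 44 genes (84.1%), against a background of 12.1% of all genes. The test called 1 gene lower (2.27%), where 1.66% of all genes were called, and 0 higher, where 1.28% were. At an unadjusted p under 0.05, in either direction, there were 21 (47.7%), where 18.8% of all genes were. With total scaling of the libraries, which moved the median of all genes to 0.100, 41 of 44 differences stayed negative. With quantile normalisation, which forces one distribution on all libraries, 30 did. It gives each rank the same value in every library, and 19 of the 25 highest Control genes are members. A joint fall of the highest genes can therefore be hidden by it. Without Phase 0 replicate 2, the library with the high organelle share, 43 were negative with a median of −0.35, and 0 were called.

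Phase 1 against Control asks how the genes stood after several days of stepwise salt, without the shock of Phase 0. Here 27 of 44 genes were lower (61.4%), against 18.6% of all genes, and 1 was higher (2.27%), against 17.4%. The remaining 16 did not pass. All Phase 1 libraries lay below all Control libraries for 34 genes (77.3%), where the background was 23.7%. The median was −0.52, beside 0.0043 over all genes, and the range ran from −2.53 to 0.61. By class, 3 of 6 LHCA, 7 of 13 LHCB, 10 of 12 photosystem I, 6 of 10 photosystem II and 1 of 3 PETC and PETE genes fell. The class medians were −0.54, −0.56, −0.66, −0.46 and −0.24. Quantile normalisation left 13 genes lower and total scaling 25. As in Phase 0, quantile normalisation cannot tell a weak fall from a joint fall of the highest genes. The 14 calls lost with quantile normalisation were those of LHCA1, LHCA2, LHCA3, LHCB1.3, LHCB3, LHCB4.1, LHCB5, LHCB6, PSAD2, PSAL, PSBO2, PSBP1, PSBX and PETE1. Without Phase 1 replicate 2 the median was −0.42 and 23 genes were lower. With Control replicate 1 and Phase 0 replicate 2 dropped together (called the joint omission from here on), 14 were lower and 0 higher. The 13 lower calls lost there were those of LHCA2, LHCA3, LHCB1.3, LHCB3, LHCB4.1, LHCB5, PSAD1, PSAG, PSAL, PSBO2, PSBP1, PSBX and PETE1.

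**Figure D2:**
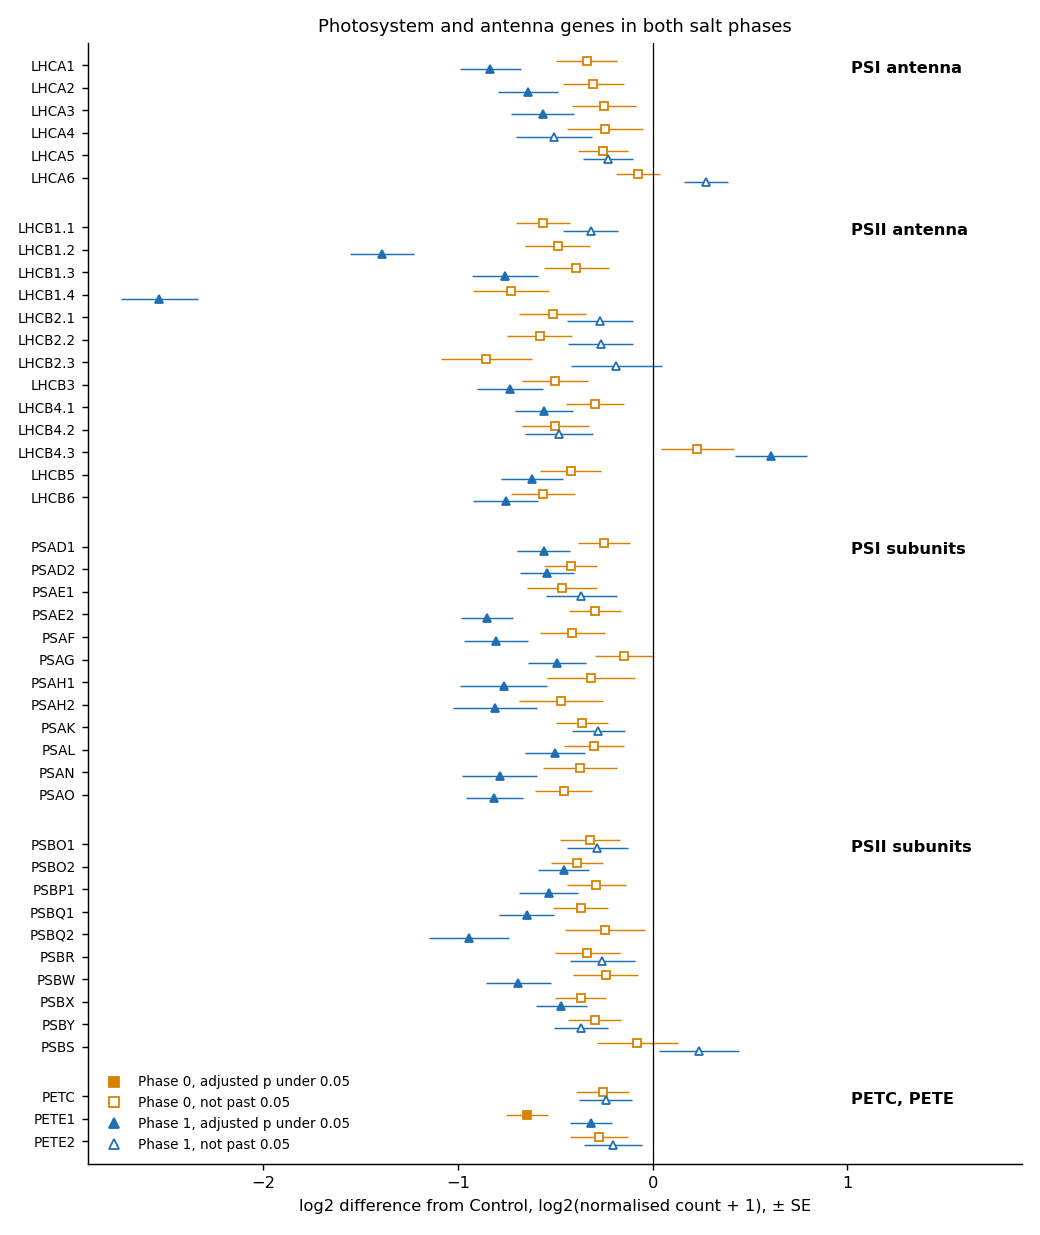
Log2 difference from Control (x axis) with its standard error for each of the 44 genes (y axis, by class), squares for Phase 0 and triangles for Phase 1, filled where the adjusted p from limma was under 0.05. In Phase 0 only PETE1 (−0.65) is filled, and in Phase 1 LHCB1.4 (−2.53) and LHCB1.2 (−1.39) lie farthest to the left while LHCB4.3 (0.61) is filled on the right.

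Between the phases few of the genes differed. Phase 1 against Phase 0 called 5 lower (11.4%), where 14.4% of all genes were called, and 2 higher (4.55%), where 13.7% were, so neither share exceeded the background. The lower ones were LHCA1, LHCB1.2, LHCB1.4, PSAE2 and PSBQ2, and the higher ones LHCA6 and PETE1. Groups that did not overlap numbered 17 lower (38.6%, against 25.3%) and 3 higher (6.82%, against 24.9%). The median was −0.20, beside −0.0083 over all genes. It was −0.062 without Phase 1 replicate 2 and −0.067 with quantile normalisation. Both comparisons with Control use the same Control libraries.

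Within the photosystem I antenna, LHCA1 to LHCA4 form the belt of antenna proteins, whereas LHCA5 and LHCA6 are minor proteins that join photosystem I to the NDH complex of cyclic electron flow. LHCA1 (AT3G54890, chromosome 3) read 242446, 226028 and 228220 in Control, 196584, 177633 and 176807 in Phase 0 and 136150, 111346 and 145748 in Phase 1. The 3 groups did not overlap, and it fell 1.78-fold in Phase 1 (log2 difference −0.83, SE 0.16, limma adjusted p = 0.00226) and 1.41-fold between the phases (adjusted p = 0.0374). The call between the phases was lost under 11 of 23 alternatives, and that against Control with quantile normalisation (−0.28, adjusted p = 0.142). LHCA2 (AT3G61470) read 149728, 133597 and 127323 in Control, 111714, 111712 and 108337 in Phase 0 and 100084, 73249 and 91715 in Phase 1. Its Phase 1 values were lower than Control by 0.64 (SE 0.16, limma adjusted p = 0.00927). LHCA3 (AT1G61520) read 190282, 184854 and 170571 in Control, 153889, 157245 and 147511 in Phase 0 and 134412, 99919 and 137825 in Phase 1. Its Phase 1 values were lower than Control by 0.57 (SE 0.16, limma adjusted p = 0.0208). Without Control replicate 1 LHCA3 missed the threshold. LHCA4 (AT3G47470) was lower in all Phase 1 libraries but did not pass (−0.51, SE 0.19, adjusted p = 0.0661 with limma).

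Of the minor pair, LHCA6 had a positive Phase 1 difference and LHCA5 a negative one. LHCA6 (AT1G19150) read 5448, 4924 and 5581 in Control, 4875, 4830 and 5426 in Phase 0 and 7088, 5860 and 6392 in Phase 1, every Phase 1 library being the higher. It rose 1.28-fold between the phases (log2 difference 0.35, SE 0.11, limma adjusted p = 0.0418), a call lost when Control replicate 3, any Phase 0 library, or Phase 1 replicate 1 or 3 was left out. Against Control its Phase 1 difference was 0.28 with an adjusted p of 0.0831 by limma. LHCA5 (AT1G45474) stood at 4852 ± 42.3, 4073 ± 351 and 4175 ± 621 in the 3 groups. It lay below every Control library in both phases (−0.26 and −0.23) and passed in neither. Reads of LHCA4 and LHCA5 overlap neighbouring genes on the other strand, and how strand was counted is not given in the sources used here.

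The photosystem II antenna holds the major trimers, made of LHCB1, LHCB2 and LHCB3 proteins, and the monomeric proteins CP29 (LHCB4), CP26 (LHCB5) and CP24 (LHCB6). LHCB1, the most abundant, is encoded by 5 copies. LHCB1.2, LHCB1.1 and LHCB1.3 stand side by side on chromosome 1 (genes at chr1:10472280-10473502, minus strand; chr1:10474656-10475969, minus strand; and chr1:10477885-10479114, plus strand), each a single exon. LHCB1.4 lies on chromosome 2 (chr2:14524607-14525918, plus strand), next to LHCB1.5. The 3 linked copies share 95.6% to 96.4% of their coding bases, and LHCB1.4 shares 87.0% to 88.4% with them. Windows of 75 bases match the read length of these libraries. Of these windows, 10.4% of LHCB1.1, 3.66% of LHCB1.2, 7.53% of LHCB1.3 and 7.27% of LHCB1.4 occur elsewhere in the genome. Reads from such windows cannot be placed on 1 copy. The shares count exact matches of windows, so the share of reads affected is not known. The genes differ far more upstream, where 42.9% to 53.0% of bases match. The 250 bases before each annotated start are printed because the 4 copies moved so differently (RefSeq, TAIR10.1, each read 5′ to 3′ along its gene). Capitals mark motifs found on either strand among those searched: the G-box CACGTG, the I-box core GATAAG, the GLK-type CCAATC, the CCA1-type AAAAATCT and AACAATCT and the evening element AAAATATCT.
LHCB1.1 (chr1:10475970-10476219, minus strand): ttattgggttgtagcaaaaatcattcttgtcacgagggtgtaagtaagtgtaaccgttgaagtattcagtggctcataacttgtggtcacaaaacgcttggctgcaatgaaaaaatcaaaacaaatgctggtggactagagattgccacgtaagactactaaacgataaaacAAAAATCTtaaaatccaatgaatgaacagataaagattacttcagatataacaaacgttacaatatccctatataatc
LHCB1.2 (chr1:10473503-10473752, minus strand): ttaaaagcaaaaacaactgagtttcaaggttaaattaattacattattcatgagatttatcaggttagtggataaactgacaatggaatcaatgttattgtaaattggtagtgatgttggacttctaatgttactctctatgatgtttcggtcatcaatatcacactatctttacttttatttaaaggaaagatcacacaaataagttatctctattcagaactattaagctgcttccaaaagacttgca
LHCB1.3 (chr1:10477635-10477884, plus strand): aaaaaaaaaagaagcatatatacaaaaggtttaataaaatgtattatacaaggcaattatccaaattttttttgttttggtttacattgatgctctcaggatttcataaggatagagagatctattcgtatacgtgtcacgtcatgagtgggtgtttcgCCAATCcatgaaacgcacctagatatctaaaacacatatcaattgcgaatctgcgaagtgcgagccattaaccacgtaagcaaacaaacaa
LHCB1.4 (chr2:14524357-14524606, plus strand): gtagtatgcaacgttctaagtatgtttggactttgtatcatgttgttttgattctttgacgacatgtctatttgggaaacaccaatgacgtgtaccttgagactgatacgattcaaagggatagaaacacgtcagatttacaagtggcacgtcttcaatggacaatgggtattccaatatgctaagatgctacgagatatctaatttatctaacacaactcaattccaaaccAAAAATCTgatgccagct

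LHCB1.1 and LHCB1.4 each hold AAAAATCT, 78 and 18 bases before the start, LHCB1.3 holds CCAATC 91 bases before it, and no searched motif occurs in the LHCB1.2 window. Over the same 250 bases AAAAATCT was found in 5 of the 45 genes (11.1%), with 6.69% of all 27443 promoters, CCAATC in 13 (28.9%, with 10.2%), CACGTG in 8 (17.8%, with 6.49%) and GATAAG in 11 (24.4%, with 12.3%). AACAATCT and AAAATATCT were each in 1 gene (2.22%, with 1.83% and 2.36% of all promoters). CCAATC stood upstream of 3 of 6 LHCA, 7 of 14 LHCB, 0 of 12 PSA and 1 of 10 PSB genes and of PETC and PETE2. A match is a description of the sequence only. LHCB1.4, which fell most, and LHCB1.1, which did not pass in either phase, both carry AAAAATCT. The part of any motif in these differences was not tested.

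LHCB1.4 (AT2G34430) had the largest difference of the 44 genes in Phase 1. Its values were 147996, 139465 and 130180 in Control, 108274, 83223 and 65637 in Phase 0 and 21036, 22685 and 28965 in Phase 1. No groups overlapped, and Phase 1 was 5.79-fold below Control (log2 difference −2.53, SE 0.20, limma adjusted p = 1.22e-05) and 3.50-fold below Phase 0 (−1.81, SE 0.20, adjusted p = 0.000107). In Phase 0 the difference was −0.73 (SE 0.20, adjusted p = 0.081 with limma).

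LHCB1.2 (AT1G29910) read 233758, 221783 and 211626, then 163857, 160170 and 151283, then 82639, 70971 and 103351. It was 2.63-fold below Control in Phase 1 (−1.39, SE 0.16, limma adjusted p = 0.000159) and 1.87-fold below Phase 0 (−0.90, adjusted p = 0.00254). The calls of LHCB1.4 and LHCB1.2 in Phase 1 against Control and against Phase 0 held under all 23 alternatives. LHCB1.3 (AT1G29930), the copy with the highest values, gave 608656, 518147 and 515326, then 449328, 413938 and 386747, then 325217, 300787 and 343564. It fell 1.69-fold in Phase 1 (−0.76, SE 0.17, limma adjusted p = 0.00593), a call lost with quantile normalisation and under the joint omission.

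LHCB1.1 (AT1G29920) behaved differently. It read 170223, 149417 and 163261 in Control, 110812, 113901 and 101865 in Phase 0 and 133622, 118941 and 134563 in Phase 1. Its lowest group was Phase 0 (−0.56, SE 0.14, adjusted p = 0.0622 with limma), and all Phase 1 libraries stood above all Phase 0 libraries. The Phase 1 difference from Control was −0.32 (SE 0.14, limma adjusted p = 0.0978), and with quantile normalisation it turned to 0.18.

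As shares of the 4 LHCB1 copies, LHCB1.4 went from 12.8% to 13.6% of counts in Control to 9.30% to 13.0% in Phase 0 and 3.74% to 4.75% in Phase 1. LHCB1.1 went the other way, from 14.5% to 16.0% in Control to 22.0% to 23.8% in Phase 1. LHCB1.2 dropped from a mean of 20.8% to 15.1%, while LHCB1.3 moved from 51.1% to 57.6%. In Phase 1 the log2 ratio of LHCB1.4 to LHCB1.1 was −2.42 ± 0.23, against −0.21 ± 0.11 in Control, with no overlap. LHCB1.2 and LHCB1.1, which stand next to each other on the chromosome, parted as well, from 0.47 ± 0.10 to −0.61 ± 0.20. Per kilobase of transcript LHCB1.3 stood first of the 44 genes in every group, with 445021 ± 43161 in Control, and LHCB1.4 went from rank 17 (106108 ± 6792) to rank 37 (18467 ± 3189) in Phase 1.

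**Figure D3:**
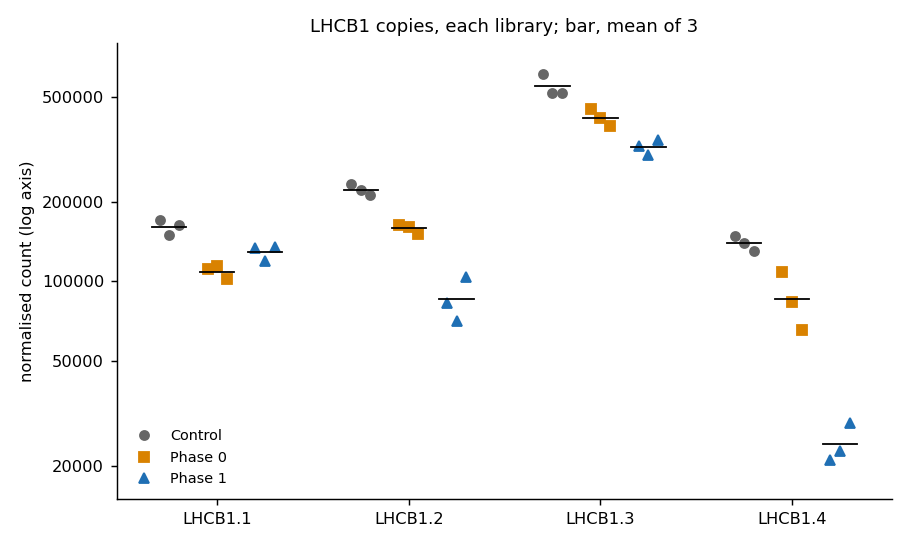
Normalised counts (y axis, log scale) of the 4 LHCB1 copies (x axis) in each library, with a bar at the mean of 3. LHCB1.4 goes from 130180 to 147996 in Control to 21036 to 28965 in Phase 1, LHCB1.2 in Phase 1 is also below its Phase 0 values, and LHCB1.1 is lowest in Phase 0.

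LHCB2 proteins are the trimer members whose phosphorylation lets antenna move between the photosystems. LHCB2.3 (AT3G27690) had the largest Phase 0 difference of the antenna: 31423, 48424 and 34175 in Control, 21315, 23182 and 17752 in Phase 0 and 37091, 23166 and 41116 in Phase 1. Every Phase 0 library lay below every Control library (−0.86, SE 0.23), but the adjusted p was 0.0843 with limma, and in Phase 1 the groups overlapped (−0.19, SE 0.23, adjusted p = 0.566). LHCB2.1 (AT2G05100) and LHCB2.2 (AT2G05070), which share 92.1% of coding bases and up to 20.5% of their 75-base windows with other places, showed the same order without passing: 66166 ± 8513, 46167 ± 3940 and 55242 ± 10344 for LHCB2.1, and 59368 ± 6862, 39613 ± 3419 and 49719 ± 9532 for LHCB2.2. LHCB3 (AT5G54270), the third trimer protein, fell from 199917 ± 22451 to 121002 ± 20449 in Phase 1 (−0.73, SE 0.17, limma adjusted p = 0.00776).

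Of the monomeric antenna, LHCB5 (AT4G10340) and LHCB6 (AT1G15820) fell in Phase 1, by 0.62 and 0.76 on the log2 scale (limma adjusted p = 0.0116 and 0.00544). In the CP29 family LHCB4.3 parted from LHCB4.1 and LHCB4.2. LHCB4.1 (AT5G01530) read 143973, 137502 and 125711 in Control, 110409, 111004 and 109956 in Phase 0 and 102080, 77754 and 98172 in Phase 1, and fell by 0.56 (SE 0.15, limma adjusted p = 0.015). LHCB4.2 (AT3G08940) read 76280, 79164 and 63137, then 54584, 55467 and 44596, then 54223, 42144 and 61261, and did not pass at −0.48 (SE 0.17, adjusted p = 0.0524 with limma). Every Phase 1 library of LHCB4.2 still lay below every Control library, and it passed under 3 of 23 alternatives. The log2 ratio of LHCB4.2 to LHCB4.1 was −0.90 ± 0.10 in Control and −0.83 ± 0.13 in Phase 1, with overlap. LHCB4.3 (AT2G40100), the most distant copy (70.2% and 70.8% of coding bases shared with the others), was the only one of the 44 genes to pass as higher than Control, LHCA6 (0.28) and PSBS (0.24) having positive differences that did not pass. It read 5813, 4554 and 6370 in Control, 5316, 6247 and 8198 in Phase 0 and 9768, 7313 and 8365 in Phase 1, every Phase 1 library above every Control library (1.52-fold, log2 difference 0.61, SE 0.19, limma adjusted p = 0.0278). Dropping Control replicate 2, Phase 1 replicate 1 or Phase 1 replicate 3, and the joint omission, each ended that call, the highest adjusted p being 0.10. The log2 ratio of LHCB4.3 to LHCB4.1 was −4.62 ± 0.31 in Control and −3.45 ± 0.09 in Phase 1, without overlap.

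Photosystem I subunits were the class most often called, with 10 of 12 lower in Phase 1. PSAD and PSAE form the stromal ridge where ferredoxin docks, PSAF and PSAN sit where plastocyanin docks, PSAH, PSAL and PSAO bind the mobile antenna, and PSAG and PSAK hold outer antenna proteins. PSAE2 (AT2G20260) read 20617, 15977 and 17282 in Control, 15586, 13987 and 14092 in Phase 0 and 11074, 8922 and 9801 in Phase 1, with no overlap between groups. It was 1.80-fold below Control in Phase 1 (−0.85, SE 0.13, limma adjusted p = 0.000831) and 1.47-fold below Phase 0 (adjusted p = 0.0113), and kept both calls under all 23 alternatives. Its copy PSAE1 (AT4G28750) read 68097, 45385 and 56918, then 48788, 34773 and 39424, then 47872, 40167 and 42725. These overlapped, and the Phase 1 difference was −0.37 (SE 0.18, adjusted p = 0.14 with limma). The log2 ratio of PSAE2 to PSAE1 was −1.65 ± 0.12 in Control and −2.14 ± 0.03 in Phase 1, with no overlap. Both PSAE genes overlap genes on the other strand, as do PSAG, PSAH1, PSAH2 and PSAN of this class.

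PSAO (AT1G08380) read 133012, 111548 and 112702 in Control, 90222, 86351 and 83048 in Phase 0 and 72294, 58429 and 73056 in Phase 1. It fell by 0.81 (SE 0.15, limma adjusted p = 0.00188), with the 3 groups apart. PSAH2 (AT1G52230) read 29936, 32539 and 27973, then 19605, 23968 and 21787, then 18404, 11720 and 23442, where Phase 1 overlapped Phase 0. It fell by 0.81 against Control (SE 0.22, limma adjusted p = 0.0154). PSAF (AT1G31330) fell by 0.81 and PSAN (AT5G64040) by 0.79 (limma adjusted p = 0.00394 and 0.00962). PSAE2, PSAF, PSAH2, PSAN and PSAO were called under all 23 alternatives in Phase 1 against Control. The calls of PSAD1, PSAD2, PSAG, PSAH1 and PSAL (−0.76 to −0.49) were each lost under 1 to 7 alternatives, PSAG without Control replicate 1, Control replicate 3 or Phase 1 replicate 2, PSAH1 without Control replicate 2 or Phase 1 replicate 2, and PSAL without Control replicate 1, Control replicate 2 or Phase 1 replicate 2. PSAK (AT1G30380) did not pass, with 60261 ± 6218, 46720 ± 1930 and 49658 ± 4893 in the 3 groups.

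On the photosystem II side the genes of the lumenal oxygen-evolving proteins (PSBO, PSBP and PSBQ) all had negative Phase 1 differences. Of these only PSBO1 did not pass. PSBQ2 (AT4G05180) read 85906, 94862 and 79891 in Control, 73406, 77116 and 69329 in Phase 0 and 53464, 31402 and 54395 in Phase 1. The 3 groups did not overlap, and in Phase 1 it was 1.92-fold below Control (−0.94, SE 0.20, limma adjusted p = 0.00523) and 1.63-fold below Phase 0 (adjusted p = 0.0278). The second call was lost without any 1 of the Phase 0 libraries. PSBQ1 (AT4G21280) read 52794, 48029 and 49868, then 35740, 39818 and 41165, then 33297, 26858 and 36804, and fell by 0.65 (SE 0.14, limma adjusted p = 0.00574).

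PSBO1 (AT5G66570), the main form of the protein that stabilises the manganese cluster, read 253806, 206789 and 213330 in Control, 189163, 175194 and 173054 in Phase 0 and 201030, 169315 and 182267 in Phase 1. All salt libraries were below all Control libraries, yet it passed in neither phase (−0.32 and −0.28, limma adjusted p = 0.292 and 0.177), and both differences turned positive, to 0.039 and 0.16, with quantile normalisation. PSBO2 (AT3G50820) read 70426, 57209 and 59987, then 46567, 48230 and 47979, then 47374, 41030 and 48018. It had the largest Phase 0 difference of the class (−0.39, SE 0.13, adjusted p = 0.15) and fell by 0.46 in Phase 1 (SE 0.13, limma adjusted p = 0.0213), a call lost without Control replicate 1. PSBP1 (AT1G06680) fell by 0.53 (limma adjusted p = 0.0205), lost without Control replicate 1 or 3, and its difference was 0.017 with quantile normalisation.

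PSBW (AT2G30570), a small membrane protein that holds photosystem II and its antenna together, read 75419, 74763 and 70792 in Control, 59109, 65270 and 62623 in Phase 0 and 52539, 35014 and 51672 in Phase 1. The groups did not overlap, and it fell by 0.69 (SE 0.17, limma adjusted p = 0.00919). PSBX (AT2G06520) fell by 0.47 (limma adjusted p = 0.0176), lost without Control replicate 1, whereas PSBR (AT1G79040) and PSBY (AT1G67740) did not pass. PSBS (AT1G44575), which is needed for the rapid dissipation of excess light as heat, was the 1 gene of the class with a positive Phase 1 difference: 38485, 46882 and 44126 in Control, 32544, 44885 and 46262 in Phase 0 and 56247, 37815 and 61573 in Phase 1. These groups overlapped (0.24, SE 0.21, adjusted p = 0.396 with limma).

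Plastocyanin, the copper protein that carries electrons from cytochrome b6f to photosystem I, is encoded by PETE1 and PETE2, which share 74.6% of coding bases. Their upstream sequences are printed because PETE1 was the only gene to pass in Phase 0. Capitals mark the motifs given above.
PETE1 (chr1:28554931-28555180, minus strand): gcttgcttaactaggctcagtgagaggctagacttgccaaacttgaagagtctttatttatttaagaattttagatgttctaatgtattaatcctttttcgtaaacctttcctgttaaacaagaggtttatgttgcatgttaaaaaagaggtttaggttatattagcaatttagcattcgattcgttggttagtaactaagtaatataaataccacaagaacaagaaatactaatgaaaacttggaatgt
PETE2 (chr1:7043393-7043642, minus strand): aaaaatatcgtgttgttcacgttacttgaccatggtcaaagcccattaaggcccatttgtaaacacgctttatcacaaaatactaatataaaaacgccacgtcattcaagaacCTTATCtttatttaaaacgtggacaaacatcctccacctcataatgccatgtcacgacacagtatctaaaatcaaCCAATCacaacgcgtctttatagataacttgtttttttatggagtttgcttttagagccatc

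None of the searched motifs occurs in the PETE1 window, and that of PETE2 holds CCAATC 62 bases before the start and GATAAG, on the other strand, 137 bases before it. PETE1 (AT1G76100) read 8035, 6530 and 7316 in Control, 4823, 4564 and 4537 in Phase 0 and 5805, 5735 and 5963 in Phase 1. The 3 groups did not overlap, Phase 0 being lowest and Phase 1 between. It fell 1.57-fold in Phase 0 (−0.65, SE 0.11, limma adjusted p = 0.0128), a call that ended when Control replicate 3 or either of Phase 0 replicates 2 and 3 was dropped, and under the joint omission (highest adjusted p 0.0813). In Phase 1 the difference from Control was −0.32 (SE 0.11, adjusted p = 0.0416 with limma), lost under 15 of 23 alternatives, and from Phase 0 it was 0.33 (SE 0.11, adjusted p = 0.0427), lost under 10.

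PETE2 (AT1G20340), the copy with by far the higher level per kilobase, read 157728, 122054 and 138659 in Control, 115838, 108693 and 119744 in Phase 0 and 127738, 110628 and 123279 in Phase 1. It passed in neither phase (−0.27 and −0.21, SE 0.15 each, limma adjusted p = 0.351 and 0.31). The log2 ratio of PETE2 to PETE1 was 4.25 ± 0.04 in Control, 4.63 ± 0.08 in Phase 0, above all Control libraries, and 4.37 ± 0.10 in Phase 1. PETC (AT4G03280), the Rieske iron-sulfur protein of cytochrome b6f, read 56752, 44713 and 52006, then 41912, 40276 and 45856, then 45676, 39159 and 44750. Its groups overlapped, and the differences were −0.26 and −0.24 (SE 0.14 each, limma adjusted p = 0.341 and 0.196).

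**Figure D4:**
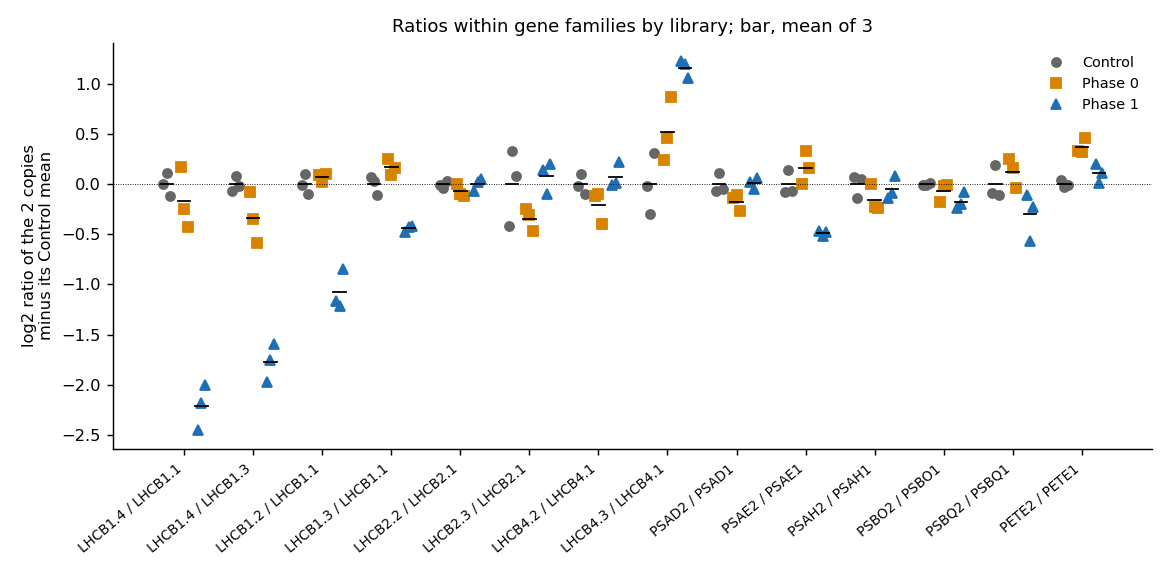
Log2 ratio of the 2 named copies of a family in each library, minus its Control mean (y axis), for 14 pairs (x axis), with a bar at the mean of 3. The pairs LHCB1.4 to LHCB1.1, LHCB1.4 to LHCB1.3 and LHCB1.2 to LHCB1.1 go down in Phase 1, LHCB4.3 to LHCB4.1 goes up, and LHCB2.2 to LHCB2.1 and PSAH2 to PSAH1 overlap in all 3 groups.

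Other nuclear genes of photosynthetic electron transport and regulators of the antenna, 38 of a list of 39 being tested, moved in both directions. In Phase 0 the test called 1 of these 38 lower (2.63%, where 1.66% of all genes were) and 0 higher, where 1.28% were. That gene was cpSRP43 (AT2G47450), the chaperone that carries LHC proteins through the stroma. It read 13198, 12612 and 13421 in Control, 8445, 7951 and 7532 in Phase 0 and 11117, 11515 and 11695 in Phase 1, a fall of 0.71 (SE 0.10, limma adjusted p = 0.00626) in Phase 0, lost without Phase 0 replicate 3 (adjusted p = 0.0506). In Phase 1, 14 were higher (36.8%, against 17.4% of all genes), 9 lower (23.7%, against 18.6%) and 15 did not pass, with a median of −0.08. Among subunits and carriers, FNR2 (AT1G20020), a ferredoxin-NADP reductase, fell from 60516, 50219 and 58053 to 20171, 18275 and 19542 (−1.54, SE 0.12, limma adjusted p = 1.46e-05), while its relative FNR1 did not pass. ATPD, a subunit of the ATP synthase, fell by 0.77 (adjusted p = 0.00731), PSBTN of photosystem II by 0.69 (adjusted p = 0.00239) and CURT1D, of the family that curves thylakoid margins, by 0.63 (adjusted p = 0.0055), all with limma.

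Of the cyclic electron flow genes 4 of 6 tested were higher in Phase 1 (66.7%, against 17.4% of all genes) and 0 lower: PGR5 by 0.66, PGRL1A by 0.50 and the NDH subunits NDHM by 0.84 and NDHN by 0.50 (limma adjusted p of 0.0013 to 0.00995). FD1, a minor ferredoxin, rose by 0.84 (adjusted p = 0.00405) and LHCB7, a rare member of the LHC family, by 1.89, from 625, 446 and 721 to 2832, 2093 and 1732 (adjusted p = 0.000169 with limma). The kinase STN7, which phosphorylates the antenna, rose by 0.47 (limma adjusted p = 0.0123), lost without Control replicate 3, and the opposing phosphatase TAP38 fell by 0.34 (adjusted p = 0.0402), lost under 13 of 23 alternatives. GLK1, a transcription factor that activates antenna genes, rose by 0.79 and its partner GLK2 fell by 0.42 (limma adjusted p = 0.0028 and 0.0162), the latter lost without Phase 1 replicate 1 or 2.

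**Figure D5:**
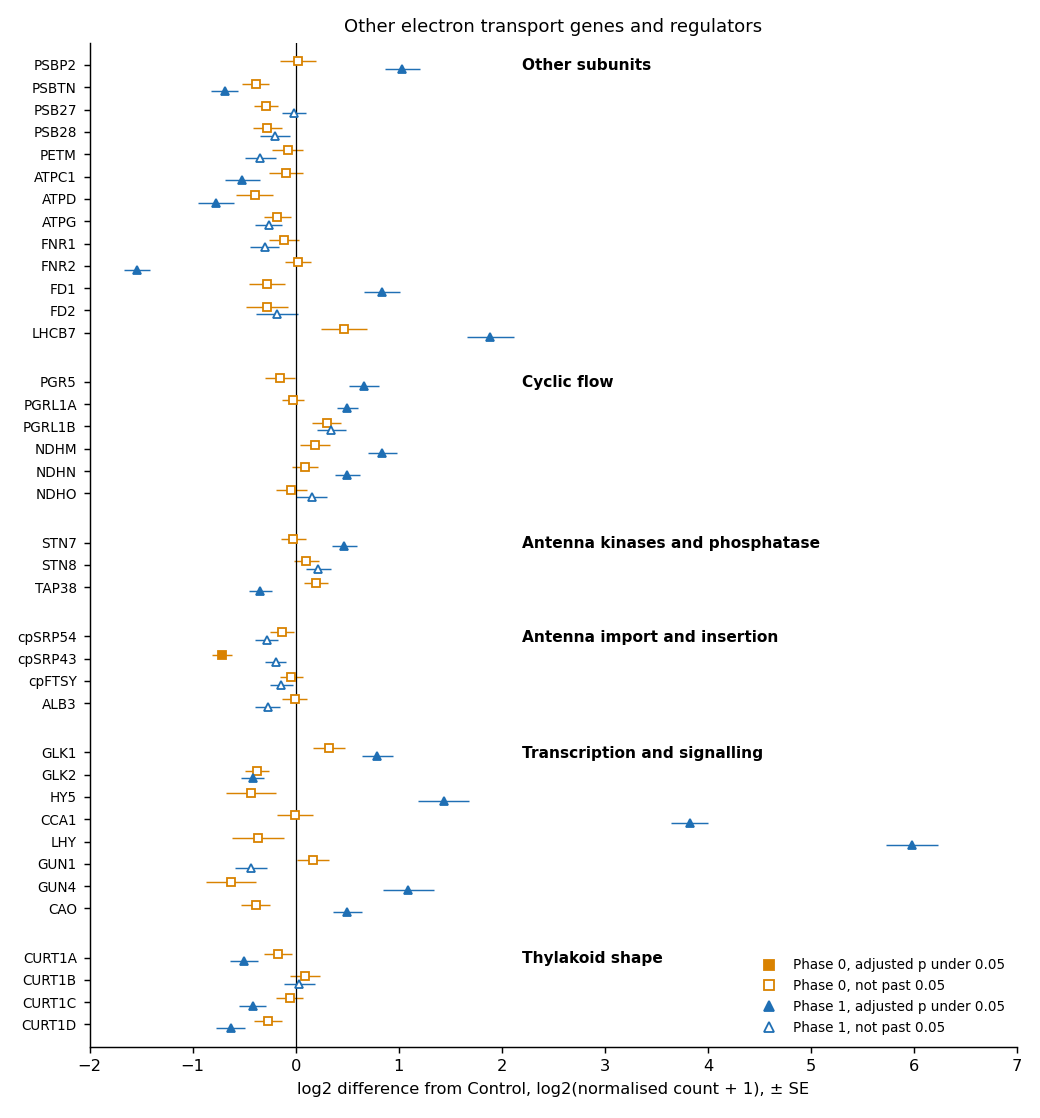
Log2 difference from Control (x axis) with its standard error for 38 other genes of the pathway (y axis, by group), squares for Phase 0 and triangles for Phase 1, filled where the adjusted p from limma was under 0.05. LHY and CCA1 lie at 5.98 and 3.82 in Phase 1, FNR2 at −1.54, and cpSRP43 is the one filled Phase 0 symbol.

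The largest Phase 1 differences of that list were in the clock genes LHY (AT1G01060) and CCA1 (AT2G46830), myb-like factors whose transcripts peak around dawn and of which CCA1 was first known for binding an LHCB1 promoter. LHY read 100, 95 and 96 in Control, 56, 117 and 64 in Phase 0 and 7626, 6097 and 5034 in Phase 1. CCA1 read 604, 714 and 945, then 748, 708 and 756, then 11430, 11906 and 8512. The Phase 1 libraries stood far above both other groups (5.98 and 3.82, limma adjusted p = 4.48e-07 and 7.46e-07), while Control and Phase 0 overlapped for both genes. HY5, a light-signalling factor, and GUN4, of chlorophyll synthesis, were higher as well, by 1.43 and 1.09 (adjusted p = 0.00135 and 0.00626, limma). The part of the time of day in the Phase 1 differences of the antenna and photosystem genes was not tested. Summed markers of other leaf cells also differed: the 4 guard cell markers were at 1556 to 1893 in Control, 1814 to 2090 in Phase 0 and 1995 to 2312 in Phase 1, where KAT1 was the 1 marker to pass in Phase 1 (0.42, limma adjusted p = 0.0288). The 2 phloem markers summed to 4056 to 5466, 3959 to 4186 and 2951 to 3424, with SUC2 lower in Phase 1 (−0.77, limma adjusted p = 0.00194) and APL higher (0.52, adjusted p = 0.0119). The part of these cells in the differences was not tested.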

How the data were processed

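The authors deposited a table of normalised counts, a score per gene and library rounded to whole numbers, for 9 libraries. Libraries came from a stranded mRNA kit, read as 75-base single ends, per the labels' protocols. For the build TAIR10, the tools listed in the submitters' processing notes, with no role or order, are featureCounts 1.4.5-p1 (and Subread), STAR 2.4.0a, FastQC and, also by the authors, DESeq2 1.62. The setting for strand is not given in the sources used here. As the scores are not raw counts, no count model was used.

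Genes with a mean of at least 10 were tested on log2(value + 1) with limma 3.58.1 (R 4.3.3, trend option, 3 groups in 1 model). The test was checked on simulated data. As the raw depth behind the scores is unknown, no counting interval is given. Alternatives were other pseudocounts, filters, scalings (an unweighted trimmed mean of M values among them) and models, a replicate block, and libraries left out. Members and gene lists were chosen with earlier results of these data known. Values in full are given for the 3 largest Phase 1 and the largest Phase 0 difference of each class and for families whose calls differ. Coordinates, sequences and identities come from RefSeq's TAIR10.1 with Biopython 1.88. Protein sequences were not used here.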

Additional observations from a re-analysis of the deposited data

How the results depend on the processing

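Of 44 genes in 23 alternatives, 986 of 1012 values in Phase 0 against Control, 926 of 1012 in Phase 1 against Control and 944 of 1012 between the phases kept their sign and side of the threshold. The calls held under every alternative for 0 of 1, 10 of 28 and 3 of 7 genes. Total scaling and total scaling with the 44 genes left out of the total were chosen after seeing the data.

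In Phase 0 the number of genes lower was 1. It was 2 with a minimum mean of 50, 2 without trend, 2 with the members left out of the total, 0 with Control replicate 1 and Phase 0 replicate 2 dropped together, and 0 to 3 with 1 library left out. Over all genes tested 547 were called, 212 with both dropped and 118 to 882 with 1 left out. In Phase 1 the 27 lower became 13 with quantile normalisation, 14 with both dropped and 20 to 28 with 1 left out. The 1 higher became 2 with quantile normalisation, 2 with total scaling, 2 with the members left out of the total, 0 with both dropped and 0 to 1 with 1 left out. Between the phases the 5 lower became 8 with quantile normalisation, 3 with both dropped and 3 to 5 with 1 left out. The 2 higher became 4 with quantile normalisation, 0 without trend, 1 with the replicate block, 0 with both dropped and 0 to 3 with 1 left out. Whole-table calls between the phases ran from 3379 to 6710 with 1 library left out, against 5249. The causes were not tested.

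Antenna to photosystem I on the log2 scale was −0.0517 in Phase 0 and −0.0061 without the families that have near-identical copies. In Phase 1 it was −0.0876, and 0.0044 without them or 0.064 with geometric means, which gave 0.11 between the phases in place of −0.0358. Antenna to photosystem II in Phase 1, −0.292, was −0.20 and −0.125, and between the phases −0.0162 with geometric means in place of −0.175.

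Quantile normalisation turned the sign in Phase 0 for 13 of 44 genes: LHCA1 (0.099), LHCA2 (0.034), LHCA3 (0.014), LHCA4 (0.11), LHCB1.3 (0.090), LHCB4.1 (0.015), PSAD1 (0.038), PSAL (0.053), PSBO1 (0.039), PSBP1 (0.0027), PSBR (0.036), PSBS (0.063) and PETE2 (0.052). In Phase 1 it did so for 7: LHCA4 (0.037), LHCB1.1 (0.18), LHCB2.3 (0.029), PSBO1 (0.16), PSBP1 (0.017), PSBR (0.27) and PETE2 (0.26), and set LHCB1.3 to 0. A joint fall of the highest genes can be hidden by this scaling, so these turns do not decide whether such genes fell. LHCB2.3 in Phase 1 ran from −0.35 to 0.065 with 1 library left out, and was 0.0019 without Control replicate 2 and 0.065 without Phase 1 replicate 2.

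The replicate numbers gave no sign of pairing, though correlations after removal of group means of 3 libraries cannot exclude it. Same-numbered libraries correlated at −0.252 to 0.252, with 2 of 9 pairs above 0.1, and other pairs at −0.337 to 0.327, with 6 of 18. With the replicate block 195 genes were lower and 177 higher in Phase 0, and the members called there did not change in number. The raw depth behind the values is unknown. Near-identical copies and the unstated strand setting limit the LHCB1 and LHCB2 families and genes with an antisense neighbour. In the antenna these neighbours lie at LHCA4, LHCA5, LHCB1.3, LHCB2.3, LHCB3, LHCB4.2 and LHCB6. Among photosystem subunits they lie at PSAE1, PSAE2, PSAG, PSAH1, PSAH2, PSAN, PSBP1 and PSBR. PSAD2 and PSBP1 overlap a gene on the same strand, which no strand setting separates.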

Other observations

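Among the mesophyll genes used as markers, which encode enzymes of carbon fixation, RBCS1B (AT5G38430), a small subunit of Rubisco, fell in Phase 1. It read 65222, 48048 and 69112 in Control, 42386, 45997 and 55492 in Phase 0 and 28859, 31004 and 31856 in Phase 1 (log2 difference −0.98, SE 0.17, limma adjusted p = 0.00137). The other 5 (RBCS1A, RBCS2B, RBCS3B, RCA and CA1) did not pass in either phase. CA1, the chloroplast carbonic anhydrase, read 104282, 122958 and 145724 in Control and 144237, 119917 and 154051 in Phase 1.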
